A study of Mus musculus with 9 samples.

Results

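The members described here are 249 mouse microRNA genes that lie on chromosomes other than 12 and have a probe of their own on the array, among 19938 genes measured. A probe here is a transcript cluster, a group of short oligonucleotides summarised to 1 value. A member had to carry a single gene symbol starting with Mirlet7, or with Mir and a digit, and not ending in hg, the suffix of host transcripts. A further 47 microRNA genes on chromosome 12 were left out, and 61 probes that list a microRNA together with other symbols could not be read for a single gene. Mir713 was the only member with more than 1 probe, and its brightest was used.

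The values came from MA-10, a line derived from a mouse Leydig cell tumour, whose steroid output is driven by cyclic AMP. Of 9 Affymetrix whole-transcript arrays, 3 held cells given 10 µM forskolin together with 1 mM AICAR, 3 held cells given 10 µM forskolin alone, and 3 held control cells, which per the treatment field received the vehicle DMSO and per the titles no treatment. All cells spent 1.5 h in serum-free DMEM-F12 with antibiotics after growth in horse serum. Forskolin switches on adenylyl cyclase, and AICAR is converted inside cells to ZMP, which mimics AMP and so activates AMPK, a kinase that senses low energy. AICAR on its own was not analysed here. It is compared only within cells that all received forskolin, or as the pair of agents against control. The labels do not say whether replicates came from separate cultures, so the p-values measure the spread between these samples, which may be technical.

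MicroRNA genes are transcribed into long primary transcripts, which Drosha and Dgcr8 cut into hairpins and Dicer1 cuts into mature strands of about the length of the sequences shown next. The mature strand guides an Argonaute protein to messenger RNAs through its seed, bases 2 to 8 from the 5′ end, so genes with the same seed share many targets. The let-7 family is known for repressing growth and early developmental genes, the mir-99 family for targeting Mtor and Igf1r, and the mir-125 family for roles in blood cell development. Genes of these 3 families often lie side by side. The kit used here makes labelled cDNA from total RNA and no step for small RNA is named, so a value at a microRNA gene is the signal of its probe. It cannot tell primary transcript, hairpin and mature strand apart, and in a bulk sample fewer cells carrying a transcript and less of it per cell cannot be told apart.

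Mature strands of most let-7, mir-99 and mir-125 genes are shown first, because these families are compared throughout. Mirlet7g and Mir98, which carry the let-7 seed, and Mirlet7a-2 are left out of the list. RefSeq, with the build GRCm38.p6, is the source of every sequence here, and capitals mark the seed. RefSeq held a mature sequence for 223 of the 249 members.

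mmu-let-7a-5p (Mirlet7a-1): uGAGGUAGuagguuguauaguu

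mmu-let-7c-5p (Mirlet7c-1): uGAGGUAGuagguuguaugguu

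mmu-let-7d-5p (Mirlet7d): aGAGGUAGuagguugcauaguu

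mmu-let-7e-5p (Mirlet7e): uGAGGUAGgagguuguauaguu

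mmu-let-7f-5p (Mirlet7f-1 and Mirlet7f-2): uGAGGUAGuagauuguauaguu

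mmu-let-7i-5p (Mirlet7i): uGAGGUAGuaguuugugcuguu

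mmu-miR-99a-5p (Mir99a): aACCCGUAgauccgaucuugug

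mmu-miR-99b-5p (Mir99b): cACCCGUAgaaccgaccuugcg

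mmu-miR-100-5p (Mir100): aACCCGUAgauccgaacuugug

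mmu-miR-125a-5p (Mir125a): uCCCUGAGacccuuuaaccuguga

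mmu-miR-125b-5p (Mir125b-1 and Mir125b-2): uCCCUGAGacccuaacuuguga

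Each family has its own seed, and let-7d, let-7e and let-7a carry the same capitals although their genes did not behave alike. Shown next are the strands of some genes that were lower with AICAR. Their relatives of the same seed, except Mir181c, are included whether these were lower or not. The list holds pairs of genes that make the same mature strand from different chromosomes.

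mmu-miR-365-3p (Mir365-1 and Mir365-2): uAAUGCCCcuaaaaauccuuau

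mmu-miR-181b-5p (Mir181b-1 and Mir181b-2): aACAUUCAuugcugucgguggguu

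mmu-miR-181a-5p (Mir181a-1 and Mir181a-2): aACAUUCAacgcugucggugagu

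mmu-miR-181d-5p (Mir181d): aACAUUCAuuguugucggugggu

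mmu-miR-107-3p (Mir107): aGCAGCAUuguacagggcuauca

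mmu-miR-103-3p (Mir103-1 and Mir103-2): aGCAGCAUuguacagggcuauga

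mmu-miR-505-3p (Mir505): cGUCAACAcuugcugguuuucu

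mmu-miR-27a-3p (Mir27a): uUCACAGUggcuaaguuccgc

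The miR-181 strands share a seed across 6 genes, and miR-107 shares its seed with miR-103. Hairpins of Mir365-1 and Mir365-2 match at 74 of 113 aligned positions (65.5%) and those of Mir181b-1 and Mir181b-2 at 65 of 91 (71.4%), so their probes may take up each other's transcript and the split between such copies is uncertain.

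The 9 arrays had median log2 values from 7.138 to 7.193, without missing values or duplicated arrays. Probes of microRNA genes were dim: 85 of the 249 (34.1%) had a mean log2 value under 5 over the 9 arrays, against 2060 of all 19938 genes (10.3%), and the median of these means was 5.84 for the members and 7.48 for all genes. The value table carries no detection calls, so it does not say which of the dim probes stood above background. Star, the cholesterol carrier that forskolin is known to induce in these cells, averaged 8.42 with forskolin and AICAR, 10.47 with forskolin and 8.58 in control on the log2 scale. The 7 Leydig markers measured had means from 8.66 to 11.95, and Lhcgr and Insl3 had no probe of a single symbol. Markers of other cells varied widely, with means such as 4.16 for Dazl (germ), 9.01 for Gata1 (Sertoli) and 11.96 for Cdh5 (endothelial). The level alone therefore did not set the Leydig markers apart. Of 24 markers of Sertoli, germ, macrophage, peritubular, fibroblast and endothelial cells, Sox9 and Cd68 were lower with AICAR than with forskolin (log2 differences of -0.46 and -0.39), Dmrt1 was called against control (0.33) but not against forskolin, and the other 21 were called in neither. Their part in the microRNA results was not tested.

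A gene is called here when its adjusted p, from limma's moderated test on all 9 arrays with Benjamini-Hochberg adjustment over all 19938 genes, is under 0.05. Differences are on the log2 scale, first group minus second, with their standard error (SE). The 3 comparisons share arrays, so their results are not independent of each other.

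Between forskolin and control 1 of the 249 microRNA genes was called, and it was lower. That is 0.402% of the members, beside 0.692% of all genes called in either direction and 0.196% called lower. Mir15a, which lies with Mir16-1 in the Dleu2 transcript and is known for repressing Bcl2 in human leukaemia cells, had log2 values of 8.79, 8.70 and 8.73 with forskolin, against 9.04, 8.99 and 8.99 in control. Every forskolin array lay below every control array. The difference was -0.27 ± 0.04 (SE, n = 3 each, adjusted p = 0.022 in limma), a fold of 1.20. Leaving out any 1 of the 6 forskolin and control arrays ended the call, with adjusted p up to 0.13, and so did a block for replicate number. With forskolin and AICAR it had 8.90, 8.81 and 8.90, between the other groups. Its neighbour Mir16-1 differed by -0.04 and Dleu2 by -0.09, neither called. The Dleu2 probe was dim, with a mean log2 value of 3.5 over the 9 arrays.

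Mir132 and Mir212, neighbours on chromosome 11 that the cyclic AMP factor CREB drives in neurons, were not called. With forskolin Mir132 had 5.96, 5.98 and 5.92, against 5.92, 5.96 and 5.72 in control, and the groups overlapped. Mir212 averaged 8.13 ± 0.12 with forskolin and 7.99 ± 0.12 in control (SD, n = 3 each), a difference of 0.14 ± 0.10 (adjusted p = 0.88 in limma). Both belong to a list of 27 microRNAs linked to cyclic AMP, AP-1, p53, SREBP or steroidogenic cells. Of its 19 measured members none was called between forskolin and control, and the median difference was 0.03, beside 0.03 for all 249 microRNA genes and 0.00 for all genes. By limma 2 of the 19 had an unadjusted p under 0.05, Mir107 with 0.24 (adjusted p = 0.20) and Mir155 with -0.15 (adjusted p = 0.65). Mir33, which lies within Srebf2 and represses cholesterol exporters, differed by 0.03, and Mir34a, a p53 target, by -0.07.

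Groups did not overlap for 22 members that were higher and 11 that were lower with forskolin than in control, together 13.3% of the members. Of all genes 6.85% stood apart and higher and 7.13% apart and lower. The members' largest differences that were not called were falls of Mir694 (-0.40), Mir181b-1 (-0.36), Mir196a-1 (-0.33), Mir130a (-0.32) and Mir181b-2 (-0.30), with adjusted p between 0.085 and 0.44. In all 5 every forskolin array lay below every control array.

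**Figure D1:**
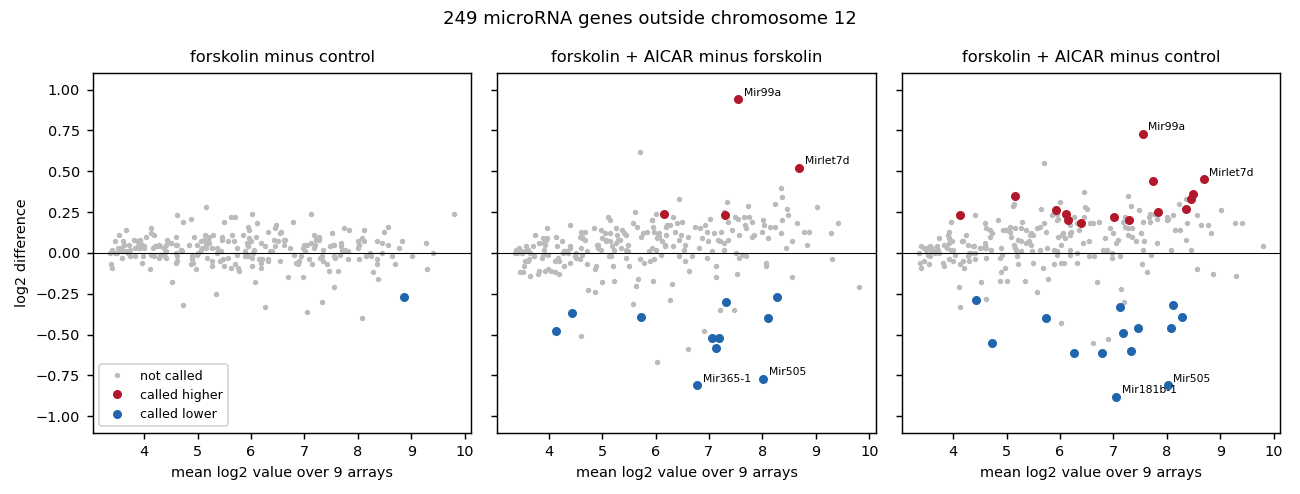
Log2 difference of each of the 249 microRNA genes (vertical axis) against its mean log2 value over the 9 arrays (horizontal axis) for forskolin minus control, forskolin with AICAR minus forskolin, and forskolin with AICAR minus control. Red points were called higher, blue points called lower and grey points were not called. The count of coloured points is 1, 15 and 29 from left to right, and Mir99a stands highest in both AICAR panels.

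When AICAR was added to forskolin, 4 microRNA genes rose and 11 fell. Mir99a, Mirlet7d, Mirlet7a-1 and Mir93 were higher, and Mir365-1, Mir505, Mir107, Mir365-2, Mir181b-1, Mir19a, Mir27a, Mir142, Mir421, Mir181b-2 and Mirlet7e were lower. The 15 are 6.02% of the members, beside 5.1% of all genes, with 0.978% of all genes called higher and 4.12% called lower. The overall share of called microRNA genes was therefore near that of all genes. The balance of directions turned with some settings: array weights gave 55 higher and 31 lower, the leading within-group axis as a covariate 40 and 22, and leaving out AICAR replicate 1 27 and 20. That axis was taken from the deviations of these same arrays from their group means. Fitting it therefore lowers the spread that the test uses. The median difference was 0.04 for the members and 0.02 for all genes, and under quantile normalization 0.009 and 0.013. Groups did not overlap for 36 higher and 24 lower members, together 24.1%, beside 23.6% of all genes (11.5% higher and 12.2% lower). On chromosome 12, 17 of 47 microRNA genes (36.2%) were called, all lower; whether that share differs from the 6.02% was not tested.

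Mir99a rose most. It lies on chromosome 16 (its RefSeq hairpin spans chr16:77598936-77599000, plus strand, GRCm38.p6), and its mature strands are the capitals in the hairpin.

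Mir99a hairpin: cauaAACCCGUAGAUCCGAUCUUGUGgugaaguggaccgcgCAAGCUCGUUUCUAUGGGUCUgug

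With forskolin and AICAR Mir99a had log2 values of 8.28, 8.02 and 8.03, against 7.05, 7.12 and 7.32 with forskolin and 7.39, 7.31 and 7.42 in control. All 3 AICAR arrays lay above all 6 others, with a gap wider than the spread within any group. The difference was 0.94 ± 0.09 (SE, n = 3 each, adjusted p = 0.00047 in limma) against forskolin, a fold of 1.92, and 0.73 ± 0.09 (adjusted p = 0.0014) against control. It passed the test under every alternative tried, between 0.86 and 1.02 against forskolin.

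The next gene on that strand of chromosome 16, Mirlet7c-1, had 6.40, 6.15 and 5.71 with forskolin and AICAR, against 5.33, 5.58 and 5.50 with forskolin and 5.54, 5.37 and 5.70 in control. Its groups did not overlap, although the lowest AICAR array was barely above the highest control array. The difference from forskolin was 0.62 ± 0.16 and missed the threshold (adjusted p = 0.055 in limma). Mir125b-2, further along the same chromosome, differed by 0.05 ± 0.05 (adjusted p = 0.50). The long noncoding transcript Mir99ahg has 4 probes, whose AICAR minus forskolin differences ran from -0.76 to 0.55. The brightest had 9.94, 9.85 and 9.70 with forskolin and AICAR, against 9.25, 9.30 and 9.30 with forskolin, a difference of 0.55. The other probes differed by -0.76, -0.36 and 0.14. The 4 probes thus did not share a direction, and no host was found around Mir99a in the RefSeq positions used here. Whether these probes report on a transcript that carries Mir99a was not tested.

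Chromosome 13 carries Mirlet7a-1, Mirlet7f-1 and Mirlet7d next to each other. Mirlet7d (RefSeq hairpin chr13:48536012-48536114, minus strand, GRCm38.p6) rose second most among all members called.

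Mirlet7d hairpin: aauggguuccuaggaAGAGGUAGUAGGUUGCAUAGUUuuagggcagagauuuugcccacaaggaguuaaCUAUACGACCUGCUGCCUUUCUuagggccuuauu

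Mirlet7d had log2 values of 9.24, 8.97 and 8.84 with forskolin and AICAR, against 8.47, 8.43 and 8.58 with forskolin and 8.50, 8.45 and 8.76 in control. The AICAR arrays lay above the rest, with replicate 1 highest. The difference from forskolin was 0.52 ± 0.11 (SE, n = 3 each, adjusted p = 0.024 in limma), a fold of 1.44. Leaving out any 1 forskolin array, or AICAR replicate 2, ended the call (adjusted p up to 0.088), as did a fit of these 2 groups alone (0.051). A block for replicate number also ended it (0.056). Mirlet7a-1 had 6.29, 6.24 and 6.37 with forskolin and AICAR, against 6.08, 6.01 and 6.09 with forskolin and 6.08, 6.10 and 6.12 in control. Its shift was smaller, 0.24 ± 0.04 (adjusted p = 0.012), but the 3 groups were tight and the AICAR arrays did not overlap the others. That call was lost without forskolin replicate 2 (adjusted p = 0.055), under quantile normalization (0.098) and in a fit of these 2 groups alone (0.054). Mirlet7f-1, which lies between them, had 6.08, 5.98 and 5.80 with forskolin and AICAR, against 5.79, 5.83 and 6.14 with forskolin and 5.80, 5.94 and 6.07 in control, and the groups overlapped throughout (0.03 ± 0.11).

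Mirlet7e moved the other way. On chromosome 17 it lies between Mir99b and Mir125a inside Spaca6, a gene of the sperm surface that is needed for fusion with the egg. Mirlet7e had 8.10, 8.06 and 8.02 with forskolin and AICAR, against 8.31, 8.30 and 8.36 with forskolin and 8.48, 8.33 and 8.54 in control. All AICAR arrays were below all others. It fell by 0.27 (SE 0.06, adjusted p = 0.025 in limma) against forskolin and by 0.39 (adjusted p = 0.0035) against control. The call against forskolin was lost without any 1 forskolin array and without AICAR replicate 2 or 3 (adjusted p up to 0.096). It was also lost under quantile normalization (0.056) and with a block for replicate number. The call against control passed under every alternative. Spaca6 had 8.10, 7.91 and 7.81 with forskolin and AICAR, against 8.65, 8.67 and 8.83 with forskolin and 8.89, 8.71 and 8.82 in control. It fell by 0.77 (SE 0.08, adjusted p = 0.00083) against forskolin. The flanking Mir99b and Mir125a were not called, with differences from forskolin of 0.17 ± 0.07 and 0.10 ± 0.06. Whether Mirlet7e and its neighbours differed from each other was not tested.

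The fourth such locus, on chromosome 9, holds Mir100, Mirlet7a-2 and Mir125b-1 in the transcript Mir100hg. Mir100 had 4.63, 4.70 and 4.78 with forskolin and AICAR, against 4.57, 4.58 and 4.57 with forskolin and 4.57, 4.57 and 4.42 in control. The AICAR arrays were highest, but the difference of 0.13 ± 0.05 was not called (adjusted p = 0.19 in limma). Mirlet7a-2 and Mir125b-1 differed from forskolin by 0.09 and 0.10, and Mir100hg by 0.23 ± 0.07 (adjusted p = 0.083). All 4 probes were dim, with group means between 4.52 and 5.37.

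Of the 10 let-7 genes measured, Mir98 included, 2 rose and 1 fell against forskolin, and 7 were not called, beside 0.978% of all genes called higher and 4.12% called lower. Their differences ran from -0.27 to 0.62, with a median of 0.06 beside 0.02 for all genes. Mirlet7i, Mirlet7g, Mirlet7f-2 and Mir98, which lie away from mir-99 and mir-125 genes, differed by 0.21, -0.03, 0.00 and -0.05. In the mir-99 family 1 of 3 genes rose, and Mir99b and Mir100 had smaller positive differences. None of the 3 mir-125 genes was called in any comparison, and their AICAR minus forskolin differences lay between 0.05 and 0.10. Against control the family counts were the same, with 2 let-7 genes higher and 1 lower, 1 mir-99 gene higher and no mir-125 gene called, beside 3.04% of all genes called higher and 5.68% called lower. Between forskolin and control none of the 16 genes was called, and the median difference was -0.04.

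**Figure D2:**
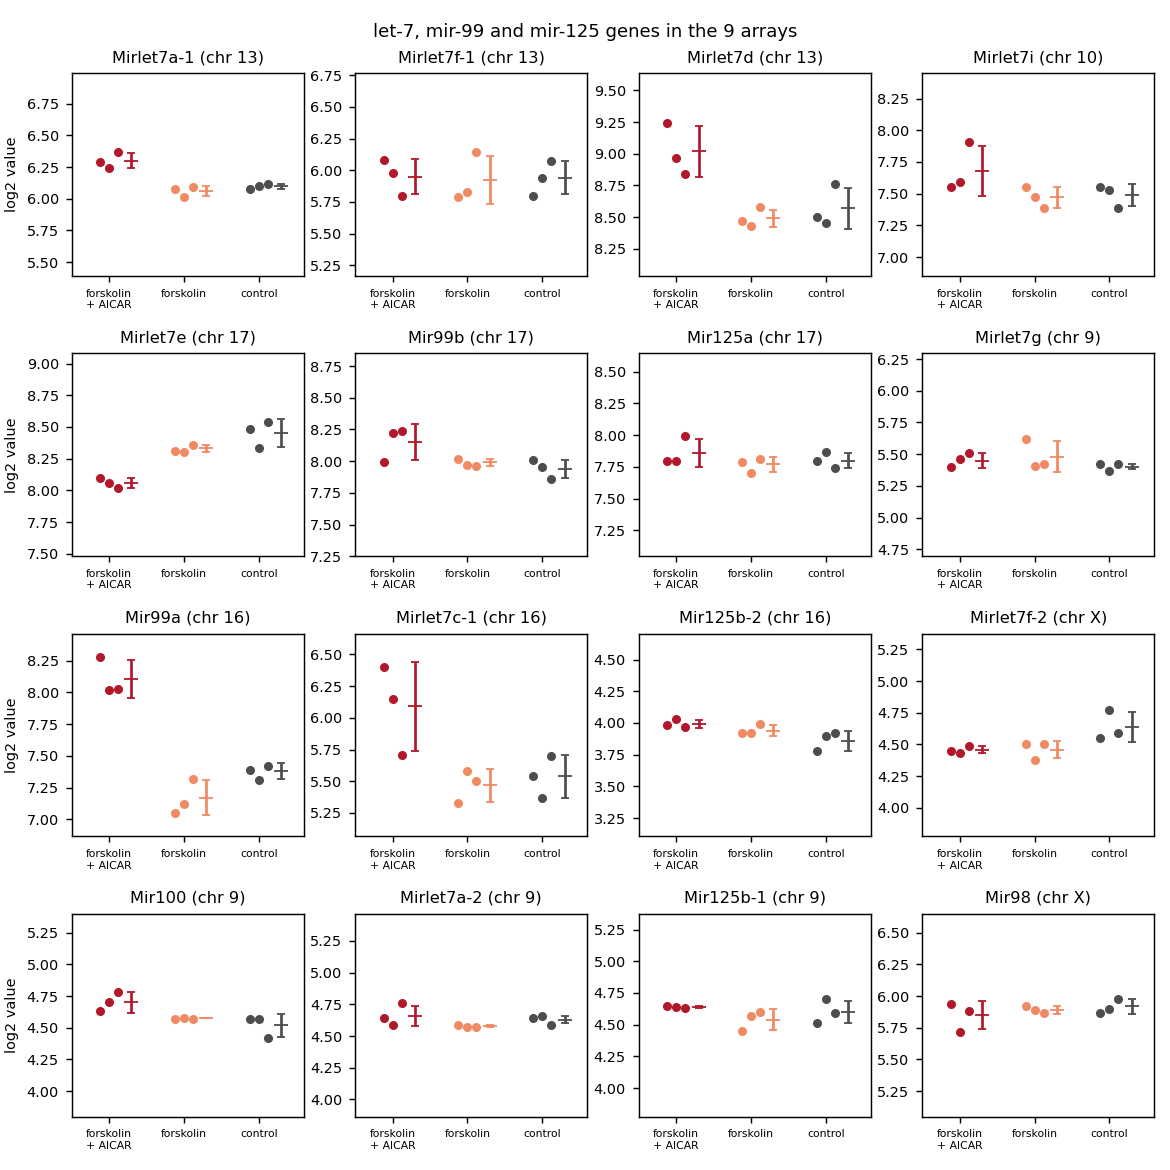
Log2 values (vertical axes, each spanning the same range) of the 16 let-7, mir-99 and mir-125 genes in the 9 arrays, with forskolin plus AICAR on the left, forskolin in the middle and control on the right of each panel. Points are arrays, and the bar beside them is the mean ± SD of 3. Mir99a and Mirlet7d lie higher and Mirlet7e lower with AICAR than in both other groups, while none of the 3 mir-125 genes was called.

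The largest fall was that of Mir365-1 on chromosome 16, whose mature strand is shared with Mir365-2 on chromosome 11. Mir365-1 had 6.19, 6.41 and 6.30 with forskolin and AICAR, against 7.14, 7.10 and 7.08 with forskolin and 7.09, 6.83 and 6.83 in control. The AICAR arrays lay well below the rest and the other groups overlapped. It fell by 0.81 (SE 0.08, adjusted p = 0.00056 in limma), a fold of 1.75. Mir365-2 had 6.90, 6.68 and 6.96 with forskolin and AICAR, against 7.36, 7.37 and 7.36 with forskolin and 7.36, 7.33 and 7.31 in control. Control and forskolin arrays all lay between 7.31 and 7.37, above every AICAR array, and the fall against forskolin was 0.52 (SE 0.06, adjusted p = 0.0020). Both also fell against control, by 0.61 and 0.49, and both calls passed under every alternative. Mir193a, the next microRNA gene to Mir365-2, had a difference of -0.02 from forskolin (adjusted p = 0.81).

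Mir505 had log2 values of 7.54, 7.59 and 7.35 with forskolin and AICAR, against 8.21, 8.14 and 8.44 with forskolin and 8.57, 8.16 and 8.18 in control. The groups with and without AICAR did not overlap. It fell by 0.77 (SE 0.12, adjusted p = 0.0061 in limma) against forskolin and by 0.81 (adjusted p = 0.0044) against control, and both calls passed under every alternative.

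Mir107 lies in an intron of Pank1, a pantothenate kinase of coenzyme A synthesis, and its relatives Mir103-1 and Mir103-2 lie in Pank3 and Pank2. Mir107 had 6.81, 6.85 and 6.81 with forskolin and AICAR, against 7.51, 7.37 and 7.33 with forskolin and 7.26, 7.17 and 7.05 in control. The AICAR arrays were lowest, and every forskolin array lay above every control array, a rise of 0.24 that was not called (adjusted p = 0.20). The fall against forskolin was 0.58 (SE 0.06, adjusted p = 0.0010 in limma) and against control 0.33 (adjusted p = 0.013). Pank1 itself differed from forskolin by 0.07 ± 0.04 (adjusted p = 0.28). Mir103-1 and Mir103-2, with the same seed, differed by 0.05 and -0.17, neither called.

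The mir-181 genes form 3 neighbouring pairs that share a seed, and not all of them were called. Whether they differed from each other was not tested. Mir181b-1 on chromosome 1 had 6.87, 6.35 and 6.54 with forskolin and AICAR, against 7.10, 7.10 and 7.11 with forskolin and 7.29, 7.47 and 7.63 in control. Mir181b-2 on chromosome 2 had 7.04, 7.02 and 6.98 with forskolin and AICAR, against 7.17, 7.30 and 7.48 with forskolin and 7.68, 7.55 and 7.62 in control. In both genes the 3 groups stood apart, with AICAR lowest and control highest. Against control they fell by 0.88 (SE 0.12, adjusted p = 0.0033 in limma) and 0.60 (SE 0.07, adjusted p = 0.0014), calls that passed under every alternative. Against forskolin they fell by 0.52 and 0.30 and were close to the threshold (adjusted p = 0.044 and 0.046). Leaving out 1 array ended the Mir181b-1 call in 8 of 9 cases, all but AICAR replicate 1 (adjusted p up to 0.14). For Mir181b-2 it did so in 7 of 9, all but AICAR replicate 1 and forskolin replicate 1 (up to 0.13). A fit of these groups alone and a block for replicate number also ended both calls. Their partners Mir181a-1 and Mir181a-2 differed from forskolin by -0.01 and 0.09 and from control by -0.03 and 0.02. Mir181d on chromosome 8 had 8.47, 8.79 and 8.71 with forskolin and AICAR, against 8.43, 8.30 and 8.25 in control, and rose by 0.33 ± 0.09 (adjusted p = 0.048), a call lost without any 1 array except AICAR replicate 1 (up to 0.17). Mir181c beside it differed from control by 0.20 (adjusted p = 0.076). Mir181b-2 lies on the strand opposite to Nr6a1, a nuclear receptor of germ cells, which had 10.23, 10.15 and 10.29 with forskolin and AICAR, against 9.84, 9.85 and 9.86 with forskolin. Nr6a1 rose by 0.37 ± 0.04 (adjusted p = 0.0016).

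Mir27a, known for repressing lipid genes such as Pparg, lies between Mir23a and Mir24-2 on chromosome 8. It had 7.81, 7.87 and 7.92 with forskolin and AICAR, against 8.19, 8.23 and 8.37 with forskolin and 8.17, 8.17 and 8.24 in control. AICAR arrays were below all 6 others, and the fall against forskolin was 0.40 (SE 0.05, adjusted p = 0.0026 in limma). Mir23a and Mir24-2 differed by -0.13 and 0.11, neither called. Mir142, a microRNA of blood cells, had 5.54, 5.49 and 5.36 with forskolin and AICAR, against 5.89, 5.76 and 5.92 with forskolin and 5.78, 5.93 and 5.88 in control, and fell by 0.39 (SE 0.06, adjusted p = 0.0078). Ptprc, the pan-leukocyte marker, had a mean of 5.43 and was not called, and Cd68 fell as given above; the part of other cells was not tested.

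Mir421, in the X-linked transcript Ftx, had 4.29, 4.14 and 4.19 with forskolin and AICAR, against 4.57, 4.52 and 4.66 with forskolin and 4.41, 4.52 and 4.57 in control. The groups were apart at a dim level, and the fall was 0.37 (SE 0.06, adjusted p = 0.0063 in limma). Mir421 also fell against control, by 0.29, a call lost without AICAR replicate 2 or 3 or control replicate 2 or 3 (adjusted p up to 0.077). Mir374b in the same transcript differed from forskolin by -0.13 (adjusted p = 0.17). Mir19a is a member of the growth-promoting Mir17-92 cluster on chromosome 14. It had 3.99, 3.85 and 3.73 with forskolin and AICAR, against 4.37, 4.17 and 4.47 with forskolin and 4.13, 4.13 and 4.31 in control, and fell by 0.48 (SE 0.09, adjusted p = 0.015). Dropping a single array among forskolin replicates 1 and 3 and AICAR replicates 2 and 3 ended the call (adjusted p up to 0.066), as did a fit of these 2 groups alone (0.053). Mir18 of that cluster had a larger difference, -0.59 ± 0.15, and a wider spread (adjusted p = 0.057), and Mir17, Mir20a and Mir19b-1 differed by -0.16, -0.06 and -0.17.

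Mir93 was the fourth gene to rise against forskolin. It lies with Mir25 and Mir106b in Mcm7, a subunit of the replicative helicase. Mir93 had 7.53, 7.39 and 7.40 with forskolin and AICAR, against 7.27, 7.17 and 7.19 with forskolin and 7.27, 7.20 and 7.24 in control. The arrays did not overlap, but the shift was small, 0.23 ± 0.05 (adjusted p = 0.030 in limma). The call was lost without any 1 control array, without forskolin replicate 2 or 3, and without AICAR replicate 2 (adjusted p up to 0.11). It was also lost under quantile normalization (0.076), median centring (0.055) and a fit of these 2 groups alone (0.095). Mir25 and Mir106b differed by 0.20 and 0.08, and Mcm7 by 0.04, none called.

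Against control, 29 microRNA genes were called with forskolin and AICAR, 15 higher and 14 lower. That is 11.6% of the members, beside 8.72% of all genes, with 3.04% of all genes called higher and 5.68% called lower. The split between directions depended on the processing. Quantile normalization gave 11 higher and 20 lower, median centring 13 and 19, and a fit of these 2 groups alone 1 and 12. Array weights gave 66 higher and 32 lower, the axis covariate 62 and 23, and leaving out AICAR replicate 1 46 and 21. The median difference was 0.06 for members and 0.03 for all genes, and under quantile normalization 0.009 and 0.011. Groups did not overlap for 54 higher and 25 lower members, together 31.7%, beside 29.5% of all genes (15.2% higher and 14.3% lower). At least 1.5-fold changes were made by 1 higher gene, Mir99a, and by 5 lower genes, Mir181b-1, Mir505, Mir365-1, Mir196a-1 and Mir181b-2. Of all 19938 genes, 18 were called higher and 119 lower at that size.

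Among genes called here but not against forskolin, Mir196a-1 in the Hox b cluster had 6.09, 5.89 and 5.94 with forskolin and AICAR, against 6.51, 6.63 and 6.62 in control. Forskolin arrays, with 6.26, 6.14 and 6.39, stood between. It fell by 0.61 (SE 0.07, adjusted p = 0.0014 in limma). Mir130a, a microRNA of vessel growth, had 4.51, 4.46 and 4.44 with forskolin and AICAR, 4.82, 4.59 and 4.69 with forskolin and 4.99, 4.94 and 5.14 in control. Its 3 groups did not overlap, and the fall against control was 0.55 (SE 0.07, adjusted p = 0.0014). Both calls passed under every alternative that kept the gene, while the AICAR minus forskolin differences of -0.29 and -0.23 were not called. Mir130a was dim, and the filters on dim genes left it out. Mir680-1 and Mir694 fell by 0.46 each, with adjusted p of 0.046 and 0.029. Mir694 averaged 7.90 ± 0.09 with forskolin and AICAR and 7.95 ± 0.03 with forskolin, against 8.35 ± 0.24 in control (SD, n = 3 each), so both treated groups were below control. Both calls were lost without AICAR replicate 2 or 3, control replicate 1 or 3, or forskolin replicate 1 or 2, that of Mir680-1 also without forskolin replicate 3, with adjusted p up to 0.13.

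The higher genes changed less. Mir375, known from pancreatic islets, had 7.88, 8.03 and 8.03 with forskolin and AICAR, against 7.61, 7.72 and 7.30 in control. Its groups did not overlap, and the rise was 0.44 ± 0.09 (SE, n = 3 each, adjusted p = 0.023 in limma). Mir205, a microRNA of epithelia, had 5.22, 5.48 and 5.17 with forskolin and AICAR and 5.34, 5.17 and 5.16 with forskolin, against 4.97, 4.94 and 4.92 in control, so both treated groups lay above control. It rose by 0.35 ± 0.08 (adjusted p = 0.033). Mir219a-1 rose by 0.36, Mir25 by 0.27, Mir184 by 0.26, Mir383 by 0.25, Mir7b by 0.24, Mir363 by 0.23, Mir143 by 0.22 and Mir695 by 0.18, with adjusted p between 0.020 and 0.049.

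Of the 15 higher calls against control, Mir99a was the only one that passed under every alternative. For the other 14, leaving out at least 1 array ended the call, with adjusted p up to 0.17. Without AICAR replicate 2, 13 members were called, without AICAR replicate 3, 17, without control replicates 1, 2 and 3 in turn, 18, 18 and 14, and without AICAR replicate 1, 67. Against forskolin the count of 15 became 9 without AICAR replicate 2 or forskolin replicate 3, and 47 without AICAR replicate 1. AICAR replicate 1 lay farthest out on the leading axis of variation within groups, with a score of -0.596, opposite to AICAR replicate 3 with 0.561, and that axis held 46% of the variation.

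**Figure D3:**
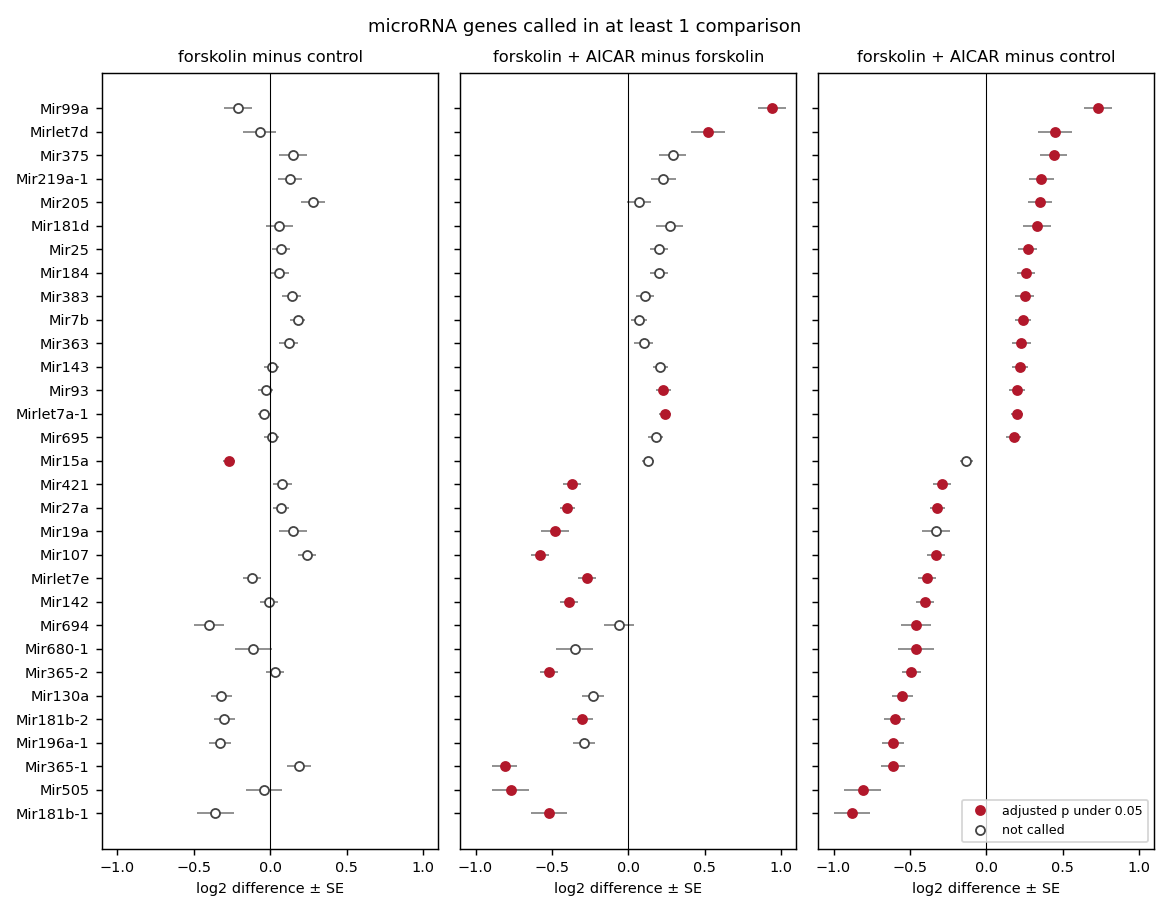
Log2 difference ± SE (horizontal axes, n = 3 arrays per group) of the 31 microRNA genes called in at least 1 comparison, ordered by their difference between forskolin with AICAR and control. Filled points have an adjusted p under 0.05 and open points do not. Only Mir15a is filled in the left panel, and the falls on the lower rows are larger than most rises above.

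Taking members within 10000 bases of each other, 108 lay in 44 neighbour groups. In 9 groups at least 1 gene was called against forskolin and in 11 against control, and in none of these was every gene called. Of all genes, 5.1% were called against forskolin and 8.72% against control. At such shares these counts do not say whether neighbours changed together. Mirlet7a-1 and Mirlet7d were called together, both higher, in each of these comparisons, and Mir25 and Mir93 against control. The differences between neighbours were not tested. For hosts, 91 members had a measured gene around them on the same strand, 72 hosts in all. Of these hosts 4 (5.6%) were called against forskolin and 6 (8.3%) against control, near the 5.1% and 8.72% of all genes. Mirlet7e with Spaca6 was the pair in which both were called.

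**Figure D4:**
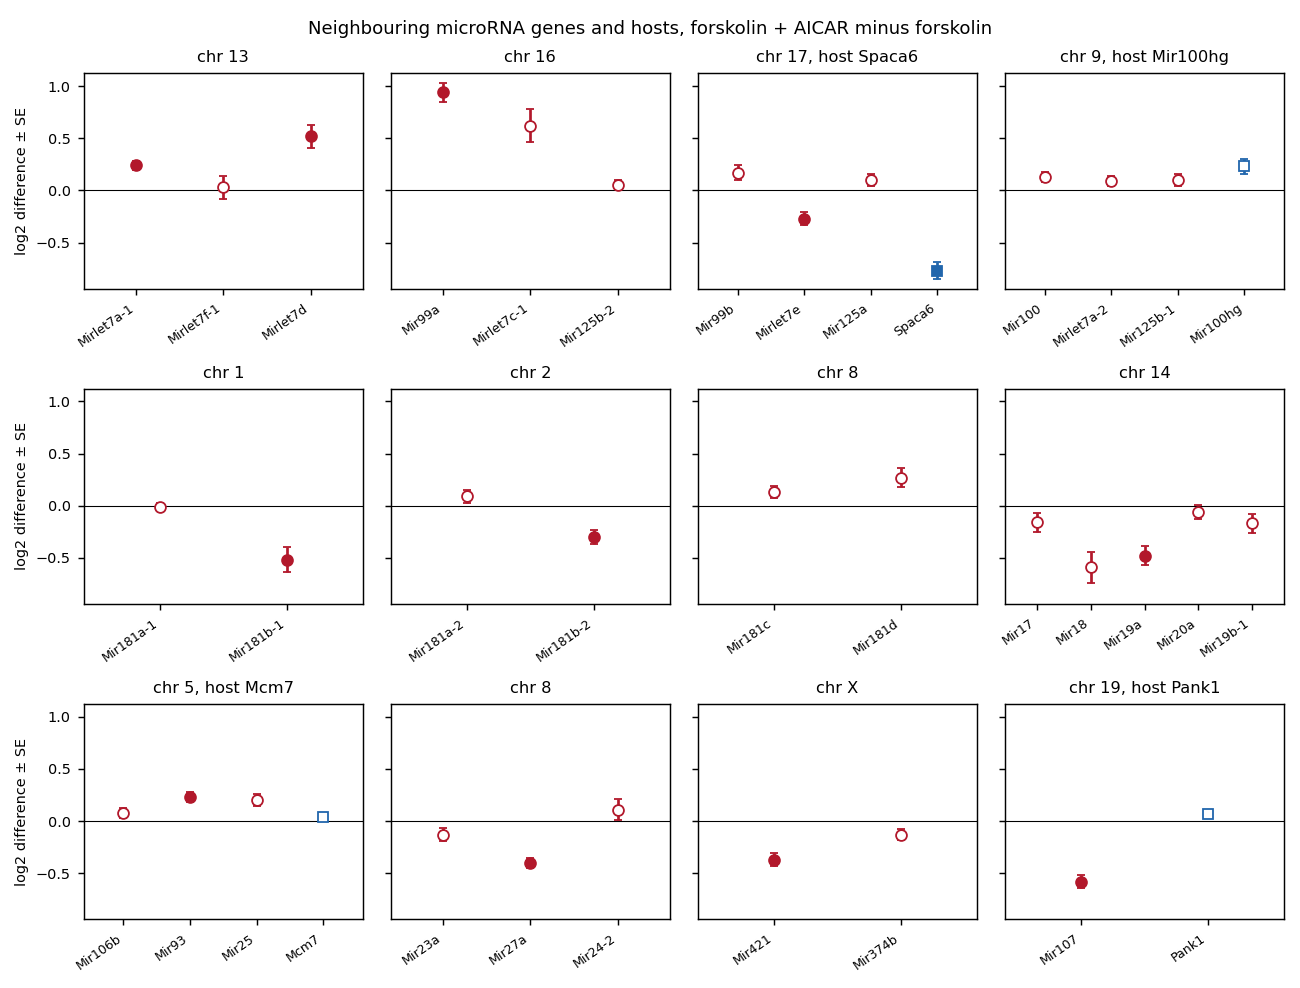
Forskolin with AICAR minus forskolin, as log2 difference ± SE (vertical axes, n = 3 arrays per group), for neighbouring microRNA genes (red circles) and measured hosts (blue squares), 1 locus per panel. Filled symbols have an adjusted p under 0.05. Mirlet7d and Mirlet7a-1 are filled while Mirlet7f-1 is at 0.03, and Mir107 is at -0.58 while Pank1 is at 0.07.

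In the Mir106b to Mir25 cluster 1 of 3 genes rose against forskolin and 2 against control, and in the Mir106a to Mir363 cluster 1 of 5 rose against control, beside 0.978% of all genes called higher against forskolin and 3.04% against control. No gene of Mir26 (2), Mir29 (2), Mir30 (6), Mir34 with Mir449 (5), Mir183 to Mir182 (3), Mir200 with Mir141 (4), the Sfmbt2 cluster (5) or the X-linked testis cluster (4) was called in any comparison by limma. In the list linked to cyclic AMP, AP-1, p53, SREBP or steroidogenic cells, Mir27a and Mir107 fell in both AICAR comparisons and the other 17 of 19 were not called. That is 10.5% of the list in each, beside 5.1% of all genes against forskolin and 8.72% against control.

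Of 26 measured genes that make or use microRNAs, none was called for forskolin against control or for AICAR added to forskolin. Against control 3 of the 26 (11.5%) were called, beside 8.72% of all genes. Ago2, the slicing Argonaute, rose by 0.22 ± 0.05 (adjusted p = 0.028 in limma), and Dicer1 and Dgcr8 fell by 0.20 (adjusted p = 0.025) and 0.26 (adjusted p = 0.029). Drosha and the hairpin exporter Xpo5 differed from forskolin by -0.03 and 0.01. Lin28a, which blocks let-7 maturation, had a difference of 0.16 ± 0.10 (adjusted p = 0.35), and Lin28b of 0.06.

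Among 24 measured known targets of let-7, 1 rose and 3 fell against forskolin, beside 0.978% and 4.12% of all genes, with a median of -0.02 against 0.02 for all genes. Nr6a1 rose as given above. The growth-related zinc finger genes Plagl1 and Plagl2 fell by 0.30 and 0.21 (adjusted p = 0.0034 and 0.047 in limma), and Insr, the insulin receptor, fell by 0.21 (adjusted p = 0.041). The classic target Hmga2 differed by 0.10 ± 0.05 (adjusted p = 0.27). Against control 2 rose, Nr6a1 and Irs2, and 3 fell, Plagl2, Cdc25a and Dicer1, beside 3.04% and 5.68% of all genes. None of 7 targets of mir-99 was called in any comparison, and Mtor and Igf1r differed from forskolin by -0.02 and -0.09.

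Base content of the hairpin went with the AICAR differences. For the 212 members with a RefSeq hairpin, Pearson's r between GC percent and the difference was 0.28 for AICAR against forskolin, 0.30 for AICAR against control and 0.06 for forskolin against control. These are descriptions across genes that share arrays and are not independent. Among genes called against control that had a RefSeq hairpin, the 13 higher had a median GC of 51.4%. The 12 lower had 45.8%, beside 47.4% for all 212. By array, r with the deviation from the control mean was 0.07, 0.35 and 0.34 in the AICAR arrays, 0.30, 0.17 and -0.27 in the forskolin arrays and 0.32, 0.18 and -0.41 in the control arrays. The sign of r thus differed between arrays of the forskolin group. Deviations of the control arrays from their own mean cancel for each gene, so unlike signs among those arrays were fixed in advance. The part of base content in the calls was not tested.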

How the data were processed

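The file was a table of log2 values per transcript cluster of 9 arrays, as the authors deposited it. RMA and Partek are named in the submitters' processing notes, with no version or setting. RMA in its usual form corrects background, gives all arrays the same distribution and summarises the oligonucleotides of a cluster. No genome build is given in the sources used here. Of 35557 probes, 21789 carried 1 gene symbol, 1621 several and 12147 none, per the platform annotation. Single-symbol probes were kept, the brightest per gene, which left 19938 genes. No dim probe was left out.

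Groups came from titles and treatment fields. A linear model with 3 group means was fitted to all genes and arrays with limma 3.58.1 in R 4.3.3, two-sided, with Benjamini-Hochberg adjustment, and microRNA genes were read from it. Tests ran on the log2 scale, and precision is limited by having 3 arrays a group. The model was tested on simulated data. Genes were matched to RefSeq tables of GRCm38.p6 by Entrez gene number, or by symbol where that number was absent. Sequences were then joined by gene number, and hosts and neighbours were found by position, with Python 3.11.15 and pandas 2.3.3. Figures were drawn with matplotlib 3.10.9.

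Named microRNA genes were the let-7, mir-99 and mir-125 families, members called in at least 1 comparison, members of the list linked to cyclic AMP, AP-1, p53, SREBP or steroidogenic cells, and neighbours of called members. Mir193a, Mir186, Mir202 and Mir687 were named after their values were seen. The other lists were genes that make or use microRNAs, targets of let-7 and mir-99, and cell type markers. The members and lists were chosen with earlier results of these data known. Alternatives were a replicate block, filters on dim genes, quantile normalization, median centring, a trended and robust prior, fits of 2 groups, array weights, the leading within-group axis as a covariate, the mean of a gene's probes, and each array left out in turn. The array weights and the axis were both estimated from the arrays being tested, so their higher counts are not independent evidence.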

Additional observations from a re-analysis of the deposited data

How the results depend on the processing

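No called difference of a named microRNA gene changed direction under the alternatives tried. The sign turned in 122 values of 54 differences that were not called, each at most 0.10 in size as reported, among them Mirlet7f-1 against forskolin (0.03, and -0.05 under quantile normalization). Over all named microRNA genes, comparisons and alternatives, 3820 values kept their side of the threshold, 144 gained a call and 191 lost it. Counts below run in the order forskolin against control, then AICAR plus forskolin set against forskolin, then the same cells set against control. As reported, 1, 15 and 29 microRNA genes and 138, 1017 and 1739 of all genes were called. With the replicate block these became 0, 12 and 18 microRNA genes and 83, 583 and 874 genes. Same-numbered arrays correlated between -0.41 and 0.33 in their deviations from the group means. Between control and forskolin these values were 0.24, 0.01 and 0.33, and in pairs with an AICAR array they ran from -0.41 to 0.08. Whether the numbers mark samples handled together was not tested. Among the calls lost with the block were those of Mirlet7d (adjusted p = 0.056), Mirlet7e (0.052), Mir181b-1 (0.093) and Mir181b-2 (0.099) against forskolin by limma. Fits of only the 2 groups compared gave 13 microRNA genes against control, and 496 and 758 genes in the AICAR comparisons. Array weights gave 6, 86 and 98 microRNA genes and 436, 5729 and 6619 genes, and the leading within-group axis as a covariate 4, 62 and 85 microRNA genes and 222, 3974 and 5523 genes. Quantile normalization gave 2 microRNA genes for forskolin against control, and in the AICAR against forskolin comparison 33.7% of all calls were higher, beside 19.2%. Leaving out 1 array gave 0 to 1, 9 to 47 and 13 to 67 microRNA genes and 76 to 144, 487 to 3324 and 660 to 4741 genes, the highest count of each comparison with AICAR being that without AICAR replicate 1. The causes were not tested. Dim probes, 53.8% of the members under a mean log2 value of 6, limit what can be seen.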

Other observations

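Among members outside the families and neighbours above, Mir202, a microRNA of gonads, had the largest difference that was not called between forskolin with AICAR and forskolin, -0.67 ± 0.17 (SE, n = 3 each, adjusted p = 0.053 in limma). Mir687 and Mir186 had -0.51 (adjusted p = 0.11) and -0.48 (adjusted p = 0.13). Mir202, Mir687 and Mir186 were picked after their values were seen.

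Let-7 genes that share a probe with other symbols were outside the test. The probe listing Lncppara and Mirlet7b had log2 values of 7.68, 7.67 and 7.96 with forskolin and AICAR, against 8.24, 8.14 and 7.98 with forskolin and 7.98 to 8.01 in control. Its AICAR arrays were below those of both other groups, with a mean difference of -0.35 from forskolin. The gap was narrow, since the highest AICAR array had 7.96 and the lowest forskolin and control arrays 7.98. The probe listing Lncppara and Mirlet7c-2 averaged 7.95 with forskolin and AICAR, 7.95 with forskolin and 7.86 in control. The probe of Mir22hg and Mir22 had 8.56, 8.38 and 8.42 with forskolin and AICAR. It had 8.01, 8.14 and 8.22 with forskolin and 8.25, 8.28 and 8.37 in control. Its groups did not overlap, but the lowest AICAR array was barely above the highest control array. The probe of Mir1291 and Snora34, a small nucleolar RNA, averaged 8.10 with forskolin and AICAR, 8.53 with forskolin and 8.91 in control, with no overlap between the 3 groups. These probes cannot assign a value to the microRNA. They are a selection from the 61 probes that list a microRNA with other symbols. Of all genes, 23.6% did not overlap between forskolin with AICAR and forskolin.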
